A study of Homo sapiens with 8 samples.

Results

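Eukaryotic translation initiation factors are the proteins that bring a ribosome, the initiator tRNA and a capped mRNA together at a start codon. Their mRNAs were taken as every gene of the deposited log2 table whose symbol starts with EIF and a digit, without the EIF2AK kinases, pseudogenes and genes with a mean log2 level under 6 over the 8 libraries. The rule gave 51 of the 25066 genes in the table. Of these, 47 are named as initiation factors or their binding proteins and are called initiation factors here. Some, such as EIF4A3 and EIF5A, are described below with other roles. The other 4 (EIF2C1 to EIF2C4) carry older symbols of the Argonaute genes, which act in RNA silencing, and are described on their own. The 47 fell into 8 genes of eIF2 and eIF2B, 13 of eIF3, 14 of eIF4 with its binding proteins (EIF4EBP), and 12 other factors. Of 59 genes with such a symbol, 4 kinases, 1 pseudogene and 3 genes of low level were left out. The lowest member was EIF5AL1 at a mean log2 level of 7.06, and the nearest genes below the limit were EIF3CL at 5.33 and EIF4EBP3 at 3.65, while EIF4E1B was listed at 0 in every library.

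The RNA came from TMD8, an established human lymphoma line (diffuse large B cell type, activated B cell-like subtype) that needs chronic B cell receptor signalling to grow. All cells carried Cas9 from a lentiviral vector and stably expressed either a guide RNA against KLHL14 (sgKLHL14, genotype KLHL14(-/-) in the labels) or a control guide (sgCTRL, KLHL14(+/+)). KLHL14 recruits substrates to a cullin-3 ubiquitin ligase. The groups were sgKLHL14 with ibrutinib, sgCTRL with ibrutinib, sgKLHL14 with DMSO and sgCTRL with DMSO, each of 2 libraries, and ibrutinib, which binds Bruton tyrosine kinase covalently and blocks it, was given at 2 nM for 24 h. The labels do not say whether cells were single clones or whether the 2 libraries of a group were grown as different cultures, so the p-values rest on a spread between libraries that may be technical.

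As background, initiation starts when eIF2, bound to GTP, carries the initiator tRNA to the small ribosomal subunit, where eIF1, eIF1A, eIF3 and eIF5 assemble with it. The eIF4 factors bind the mRNA cap and unwind the leader, and eIF5B joins the large subunit after the start codon is found. Cells control this at 2 well known points: stress kinases phosphorylate the alpha subunit of eIF2 and block its recycling by eIF2B, and the kinase mTORC1 phosphorylates 4E-BP proteins so that they release the cap-binding protein eIF4E.

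Depth was 12333876 to 16843591 reads in the ibrutinib libraries and 13497206 to 23467110 reads in the DMSO libraries, and the members had between 51 reads (EIF4E3) and 32413 reads (EIF4A1) in a library. Libraries of a group correlated at 0.994 to 0.996 across genes. B cell markers were high, with a mean log2 level of 13.57 for CD79A and 15.91 for CD74, and IRF4, which marks the activated B cell-like type, stood at 15.62. CD3D and CD3E, which define T cells, were listed at 0, LYZ and EPCAM were at 0.19 and 0.13, and of the other markers of T cells, myeloid cells, epithelium and fibroblasts only CD8A (5.60), COL1A1 (6.86) and COL1A2 (6.09) were above 3.66. In ibrutinib, KLHL14 mRNA was at 13.16 and 13.16 in the libraries labelled sgKLHL14, against 12.30 and 12.30 with sgCTRL, and was called higher by 0.86 on the log2 scale (limma adjusted p = 2.62e-08). In DMSO it was at 12.19 and 12.33, against 12.07 and 12.06, a difference of 0.20 that was not called (adjusted p = 0.107), and its response to ibrutinib differed between guides by 0.66 (adjusted p = 0.00164). Counts per gene cannot show the small insertions and deletions that Cas9 makes, and the genotype is taken from the labels.

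The first question is what the inhibitor did to the initiation factor mRNAs with each guide. Ibrutinib lowered many of them by a small amount and a few by more. With sgKLHL14, 18 of the 47 fell, 1 rose and 28 were not called at a limma adjusted p under 0.05, where 19.4% of the 12531 genes tested were called lower and 19.9% higher. With sgCTRL, 19 fell, 1 rose and 27 were not called, against 17.0% of all genes called lower and 18.1% higher. The median log2 change of the 47 was -0.15 with sgKLHL14 and -0.11 with sgCTRL, beside medians over all genes of 0.01 and 0.02. A negative change was found for 39 of the 47 with sgKLHL14 and for 40 with sgCTRL. In these bulk libraries, fewer cells of a kind and less RNA per cell cannot be told apart.

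With both guides 14 factors fell, and with at least 1 guide 23 did. Over all genes only the calls with each guide were counted, so no share stands beside these counts. The same gene, EIF3F, rose with both. EIF3C, EIF4A3, EIF4H and EIF6 were called lower with sgKLHL14 but not with sgCTRL, and EIF1AD, EIF1B, EIF2A, EIF2S3 and EIF3D with sgCTRL but not with sgKLHL14. The difference between the responses was itself tested, and 0 of the 47 were called by limma or by voom on recovered reads, where 0.0239% of all genes were called by limma. At an unadjusted p under 0.05 there was 1 of the 47, against 713 of all 12531 genes, so these lists do not show a response limited to 1 guide. For 21 of the 47, all 4 ibrutinib libraries lay below all 4 DMSO libraries, and for 4 (EIF2B4, EIF3F, EIF3L and EIF4A2) they lay above, against 21.2% and 21.4% of all genes tested. Together the 47 mRNAs took 1.39% and 1.35% of the reads in sgKLHL14 ibrutinib libraries, against 1.47% and 1.47% in sgKLHL14 DMSO libraries. With sgCTRL their share was 1.33% and 1.34% in ibrutinib and 1.45% and 1.44% in DMSO.

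**Figure D1:**
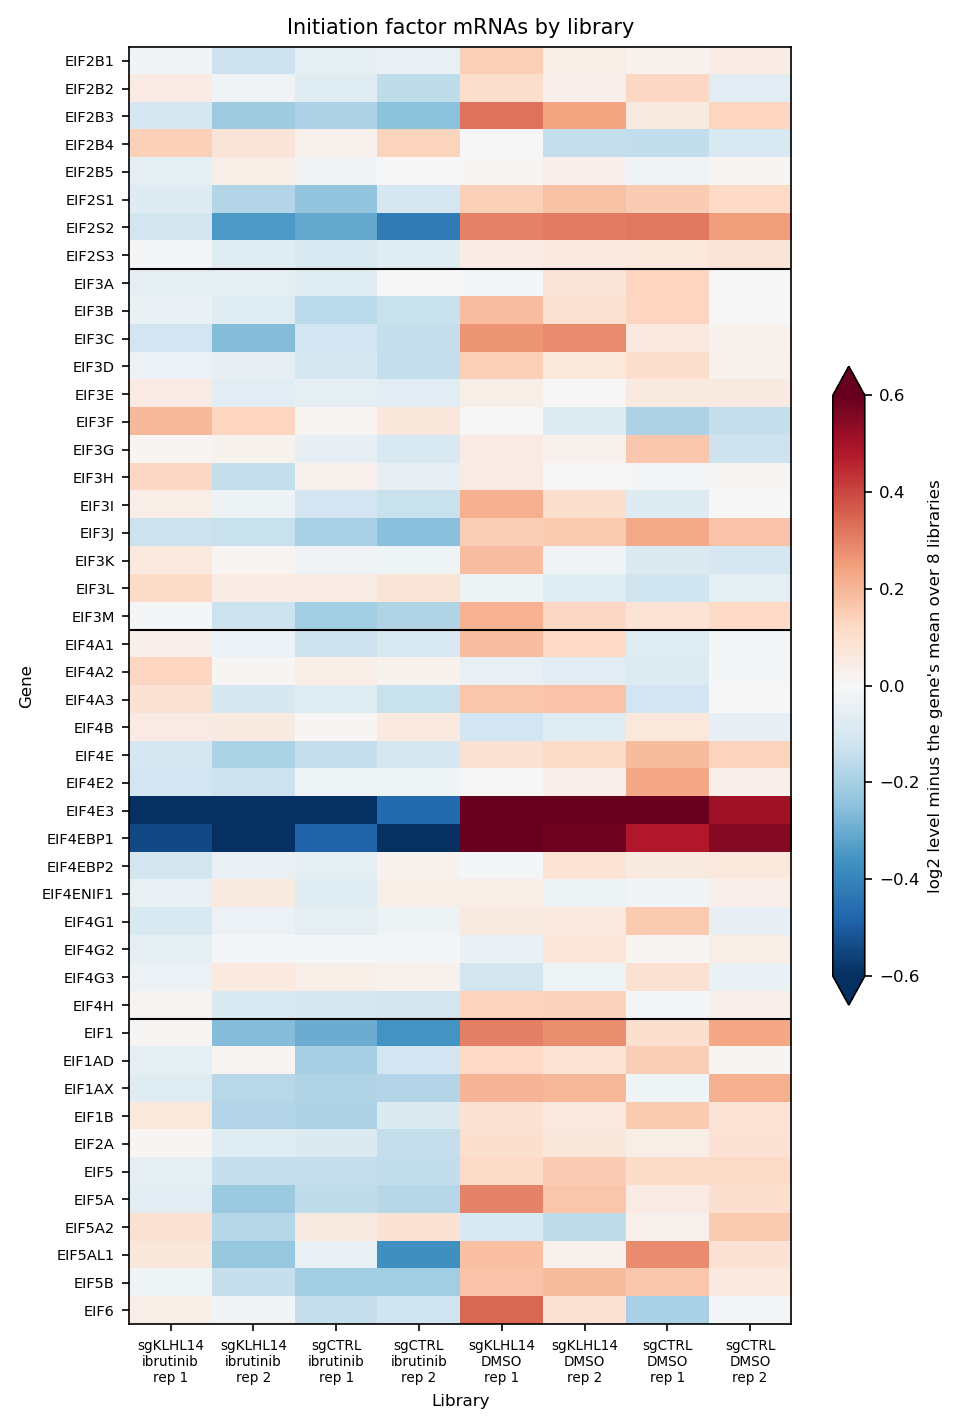
Log2 level of each initiation factor mRNA in each of the 8 libraries minus that gene's mean over the libraries, with genes in rows, libraries in columns and lines between the families eIF2 and eIF2B, eIF3, eIF4 with EIF4EBP and other factors. Blue is below and red above the mean, colours saturate beyond 0.6, and EIF1AY, which is Y-linked, is not drawn. EIF4E3 and EIF4EBP1 are dark in every library, below their mean in ibrutinib and above it in DMSO.

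Leaving out 1 library changed the size of these counts. With sgCTRL, 12 factors were called lower without sgCTRL ibrutinib replicate 1, when the genes called lower in the whole table also fell to 1449. Without sgCTRL DMSO replicate 2, which leaves sgCTRL libraries of 13331861 to 16520319 reads, 18 were called lower. With sgKLHL14 the count also moved, as did the number called lower in the whole table. The median change of the 47 ran from -0.19 without sgKLHL14 ibrutinib replicate 1 to -0.12 without sgKLHL14 DMSO replicate 1. The call of EIF3F with sgKLHL14 ended without ibrutinib replicate 1 (adjusted p = 0.0791) or DMSO replicate 2 (0.0726), and with sgCTRL without ibrutinib replicate 2 (0.145) or DMSO replicate 1 (0.0812).

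The largest changes were in the cap-binding arm. EIF4EBP1 encodes 4E-BP1, which holds eIF4E away from the scaffold eIF4G until mTORC1 phosphorylates it, and is a known transcriptional target of the stress factor ATF4. Its log2 level was 8.99 and 8.75 in sgKLHL14 ibrutinib libraries, against 10.37 and 10.11 in sgKLHL14 DMSO libraries. With sgCTRL it was 9.04 and 8.88 in ibrutinib, against 10.01 and 10.08 in DMSO. Every ibrutinib library lay well below every DMSO library. The level fell by 1.38 on the log2 scale with sgKLHL14 (SE 0.104, limma adjusted p = 5.01e-09), to 0.385 of the DMSO level. With sgCTRL it fell by 1.09 (SE 0.104, adjusted p = 1.18e-07), to 0.471 of the DMSO level. The responses differed by -0.29 (95% interval -0.597 to 0.0173), which was not called.

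EIF4E3, a paralogue of eIF4E that also binds the cap, fell by a like amount from a much smaller number of reads. It had 73 and 51 reads in sgKLHL14 ibrutinib libraries, against 252 and 236 in sgKLHL14 DMSO libraries, which correspond to log2 levels of 6.89 and 6.80 against 8.21 and 8.17. With sgCTRL the log2 levels were 6.80 and 7.06 in ibrutinib, against 8.28 and 8.04 in DMSO. The 2 treatments did not overlap. The change was -1.34 with sgKLHL14 (SE 0.150, adjusted p = 9.12e-07) and -1.23 with sgCTRL (SE 0.150, adjusted p = 3.12e-06).

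EIF4E itself, the cap-binding protein of general translation, moved far less. Its log2 level was 11.72 and 11.63 in sgKLHL14 ibrutinib libraries, against 11.92 and 11.94 in sgKLHL14 DMSO libraries. With sgCTRL it was 11.68 and 11.72 in ibrutinib, against 12.02 and 11.96 in DMSO. All ibrutinib libraries lay below all DMSO libraries, and the fall was 0.25 with sgKLHL14 (SE 0.0603, adjusted p = 0.00248) and 0.28 with sgCTRL (adjusted p = 0.00121). EIF4E2, another paralogue, linked to repression of mRNAs, changed by -0.14 and -0.16 and was not called with either guide. EIF4EBP2, the other 4E-BP among the members, had a higher mean log2 level over the libraries, 12.29 against 9.53 for EIF4EBP1. EIF4EBP2 changed by -0.12 with sgKLHL14 and -0.07 with sgCTRL, also not called.

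**Figure D2:**
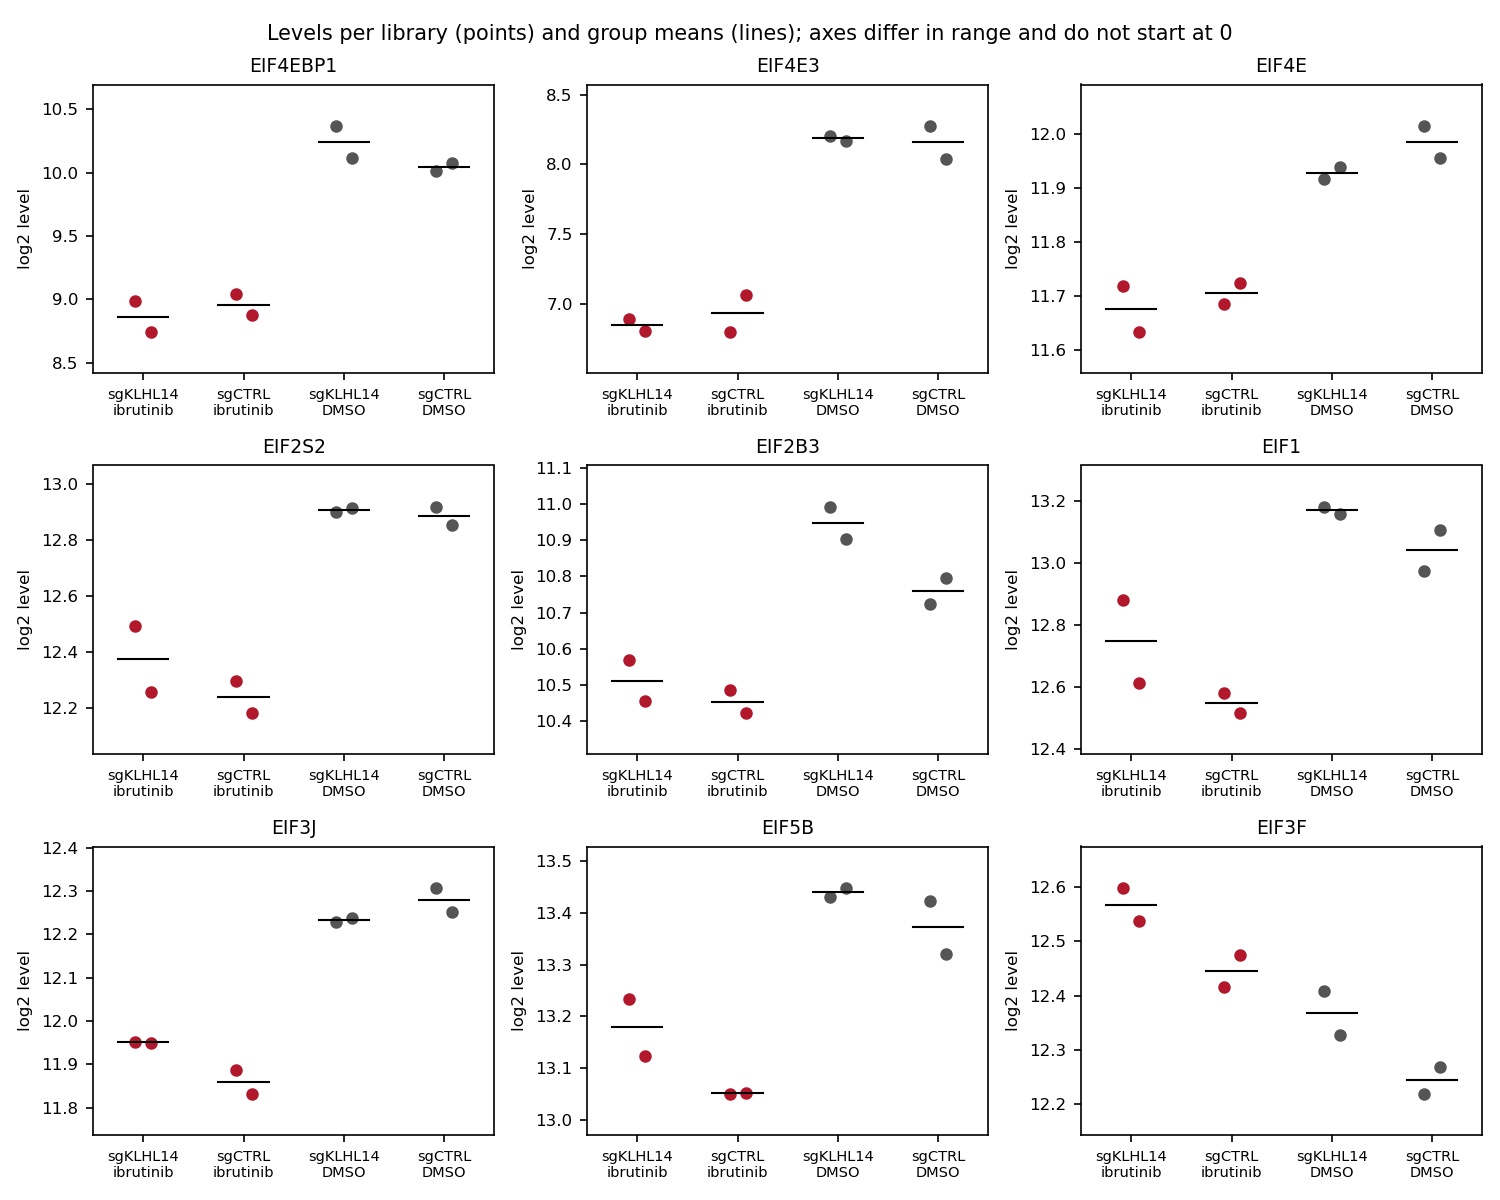
Log2 level (y axis, a separate range for each gene) of 9 initiation factor mRNAs in the 8 libraries, by group on the x axis. Points are libraries (red ibrutinib, grey DMSO) and lines are group means of 2 libraries. The ibrutinib libraries lie below the DMSO libraries in every panel except EIF3F, where they lie above.

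In the whole eIF4 family 5 of 14 fell with sgKLHL14 and 3 of 14 with sgCTRL (35.7% and 21.4%, against 19.4% and 17.0% of all genes), so the sgCTRL share was close to that of all genes. None rose, and the median changes were -0.13 and -0.07. The 2 called with sgKLHL14 alone, EIF4A3, a helicase of the exon junction complex, and EIF4H, a helper of the eIF4A helicase, changed by -0.17 each with sgKLHL14 (adjusted p = 0.0493 and 0.0218) and by -0.04 and -0.11 with sgCTRL. The scaffold and helicase of the cap complex were not called. EIF4G1, the main scaffold, changed by -0.12 and -0.10, and EIF4A1, the main helicase, by -0.15 (adjusted p = 0.0503) and -0.07. EIF4A2 and the helicase cofactor EIF4B were at 0.12 and 0.15 with sgKLHL14 and at 0.08 and 0.03 with sgCTRL. EIF4G2, EIF4G3 and EIF4ENIF1, which shuttles eIF4E, lay between -0.05 and 0.08 with both guides.

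Of the smaller changes in this family, EIF4A3 was the least stable, losing its call under 10 of the 16 alternative fits. With all libraries kept, it was not called under median scaling, quantile scaling or voom. It was also not called without the mean-variance trend or without the filter on low values. Its call ended without sgKLHL14 ibrutinib replicate 2 (-0.08) or either sgKLHL14 DMSO library (-0.17 each). It also ended without either sgCTRL ibrutinib library, where its change stayed at -0.172 and only the shared SE was larger. Without sgKLHL14 ibrutinib replicate 1 its change was -0.26. EIF4H lost its call without sgKLHL14 ibrutinib replicate 2 (-0.12) or sgKLHL14 DMSO replicate 2 (-0.17). It also lost it without either sgCTRL ibrutinib library, where its change stayed at -0.173. The family count also changed without some single libraries, as did the number of genes called in the whole table.

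The 250 bases before the transcription start were searched for 2 short motifs that bear on growth and stress control. These were CACGTG, the E-box that MYC and related factors bind, and TGATGNAA on either strand, the core of the element that ATF4 binds with C/EBP proteins. A promoter was found for 40 of the 47 factors in the RefSeq table of GRCh38.p14. CACGTG was present before 10 of the 40 (25%), against 7.73% of all 27305 genes in that table. Those genes were not filtered by level or gene type as the factors were, so the 2 shares are of unlike sets. The motif CACGTG occurred before 5 of the 21 matched factors that fell with a guide and before 5 of the 19 that did not. TGATGNAA was present before 1 of the 40, EIF4E3, at 1 of its 3 listed starts, against 3.89% of all genes. Factors with no promoter there were not searched, and of the 23 that fell with a guide 21 were searched. Whether EIF4EBP1 was among those searched is not given here. A match is a run of letters and not a tested binding site. The EIF4E window (chr4:98929134-98929383, minus strand) is shown because it holds 2 copies of CACGTG, and the EIF4E3 window (chr3:71729119-71729368, minus strand) because it holds the single TGATGNAA match, with the matches in capitals.
EIF4E: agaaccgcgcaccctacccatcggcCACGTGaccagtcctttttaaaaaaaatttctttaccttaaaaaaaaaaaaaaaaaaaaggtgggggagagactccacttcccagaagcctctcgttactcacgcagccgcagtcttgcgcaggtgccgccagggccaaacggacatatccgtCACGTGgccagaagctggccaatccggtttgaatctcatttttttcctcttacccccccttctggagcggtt
EIF4E3: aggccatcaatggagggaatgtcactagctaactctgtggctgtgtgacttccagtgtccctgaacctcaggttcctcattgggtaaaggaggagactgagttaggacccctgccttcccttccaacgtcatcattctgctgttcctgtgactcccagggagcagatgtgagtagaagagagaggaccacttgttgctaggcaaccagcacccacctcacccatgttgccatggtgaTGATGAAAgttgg

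The eIF2 complex, the GTPase that delivers the initiator tRNA, fell in its alpha and beta subunits. EIF2S2, the beta subunit, had log2 levels of 12.49 and 12.26 in sgKLHL14 ibrutinib libraries, against 12.90 and 12.92 in sgKLHL14 DMSO libraries. In sgCTRL cells it had 12.30 and 12.18 in ibrutinib, against 12.92 and 12.85 in DMSO. The treatments did not overlap, and the change was -0.53 with sgKLHL14 (SE 0.0705, adjusted p = 7.14e-06) and -0.65 with sgCTRL (SE 0.0705, adjusted p = 7.13e-07). EIF2S1, the alpha subunit that stress kinases phosphorylate, had 12.36 and 12.26 in sgKLHL14 ibrutinib libraries, against 12.58 and 12.61 in sgKLHL14 DMSO libraries, and 12.20 and 12.33 with sgCTRL in ibrutinib, against 12.59 and 12.55 in DMSO. Its change was -0.29 (SE 0.0622, adjusted p = 0.00113) and -0.31 (adjusted p = 0.000759). EIF2S3, the gamma subunit that binds GTP and the tRNA, changed by -0.09 with sgKLHL14 (not called) and by -0.15 with sgCTRL (adjusted p = 0.0390). That last call ended without any 1 of the 4 sgCTRL libraries (adjusted p 0.0941 to 0.224).

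In eIF2B, the exchange factor that reloads eIF2 with GTP, a single subunit fell. EIF2B3, the gamma subunit of the catalytic part, had log2 levels of 10.57 and 10.46 in sgKLHL14 ibrutinib libraries, against 10.99 and 10.90 in sgKLHL14 DMSO libraries. With sgCTRL it had 10.49 and 10.42 in ibrutinib, against 10.72 and 10.80 in DMSO. No library of 1 treatment reached the other, and the change was -0.44 with sgKLHL14 (SE 0.0713, adjusted p = 7.62e-05) and -0.31 with sgCTRL (SE 0.0713, adjusted p = 0.00249). EIF2B5, its catalytic partner, changed by -0.03 with sgKLHL14 and -0.0005 with sgCTRL and was not called. EIF2B1 and EIF2B2 of the regulatory part changed by -0.16 and -0.05 with sgKLHL14 and by -0.08 and -0.14 with sgCTRL, none called. EIF2B4, also a regulatory subunit, went the other way at 0.18 (adjusted p = 0.0663) and 0.20 (adjusted p = 0.0511), and its ibrutinib libraries lay above its DMSO libraries without a call. Over the 8 genes of eIF2 and eIF2B, 3 fell with sgKLHL14 and 4 with sgCTRL (37.5% and 50%, against 19.4% and 17.0% of all genes), 0 rose, and the medians were -0.13 and -0.15. The EIF2B3 promoter window (chr1:44986596-44986845, minus strand) is shown because this gene fell and holds 1 CACGTG, in capitals.
EIF2B3: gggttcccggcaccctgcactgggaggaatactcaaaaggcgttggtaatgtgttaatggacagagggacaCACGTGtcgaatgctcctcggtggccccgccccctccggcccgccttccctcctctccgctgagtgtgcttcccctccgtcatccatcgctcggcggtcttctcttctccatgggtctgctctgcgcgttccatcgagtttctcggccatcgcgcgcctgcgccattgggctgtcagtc

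The eIF3 complex, the large scaffold on the small ribosomal subunit, had calls in both directions. Of 13 subunits 4 fell (30.8%) and 1 rose (7.69%) with either guide, where 19.4% and 17.0% of all genes were lower and 19.9% and 18.1% higher. The other 8 were not called, and the medians were -0.09 with sgKLHL14 and -0.10 with sgCTRL. EIF3J, a loosely bound subunit at the mRNA channel, had log2 levels of 11.95 and 11.95 in sgKLHL14 ibrutinib libraries, against 12.23 and 12.24 in sgKLHL14 DMSO libraries. In sgCTRL cells the levels were 11.89 and 11.83 in ibrutinib, against 12.31 and 12.25 in DMSO. These groups did not overlap, and the change was -0.28 (SE 0.0578, adjusted p = 0.000687) with sgKLHL14 and -0.42 (SE 0.0578, adjusted p = 1.26e-05) with sgCTRL. EIF3M, of the structural core, changed by -0.24 (adjusted p = 0.00413) and -0.30 (adjusted p = 0.000764), and EIF3B, the subunit with the RNA-binding and propeller domains, by -0.20 (adjusted p = 0.0151) and -0.21 (adjusted p = 0.00957).

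EIF3C, another core subunit, had log2 levels of 9.64 and 9.49 in sgKLHL14 ibrutinib libraries, against 10.02 and 10.03 in sgKLHL14 DMSO libraries. In sgCTRL cells the levels were 9.64 and 9.61 in ibrutinib, against 9.81 and 9.77 in DMSO. All ibrutinib libraries lay below all DMSO libraries, and the sgKLHL14 DMSO libraries were the highest. The change was -0.46 with sgKLHL14 (SE 0.0815, adjusted p = 0.000175) and -0.17 with sgCTRL (adjusted p = 0.116). The difference of -0.29 had an unadjusted p of 0.0209 and was not called (adjusted p = 0.858). EIF3C has a near-identical neighbour copy, EIF3CL, at 18 to 37 reads in a library, and reads could be split between them, so its level is uncertain. EIF3D, which can bind the cap of some mRNAs, changed by -0.15 (adjusted p = 0.0515) and -0.19 (adjusted p = 0.0132).

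EIF3F was the only initiation factor called higher with ibrutinib. Its log2 level was 12.60 and 12.54 in sgKLHL14 ibrutinib libraries, against 12.41 and 12.33 in sgKLHL14 DMSO libraries. With sgCTRL it was 12.42 and 12.48 in ibrutinib, against 12.22 and 12.27 in DMSO. Every ibrutinib library lay above every DMSO library, with a narrow gap between the highest sgKLHL14 DMSO and the lowest sgCTRL ibrutinib library. The change was 0.20 with both guides (SE 0.0592, adjusted p = 0.0112 with sgKLHL14 and 0.0122 with sgCTRL), and the call was lost without 1 library as given above. EIF3L was at 0.13 (adjusted p = 0.0763) and 0.15 (adjusted p = 0.0516). EIF3A, EIF3E, EIF3G, EIF3H, EIF3I and EIF3K were between -0.16 and 0.07. The EIF3F promoter window (chr11:7987087-7987336, plus strand) is shown because it holds a CACGTG, in capitals, in a gene that rose.
EIF3F: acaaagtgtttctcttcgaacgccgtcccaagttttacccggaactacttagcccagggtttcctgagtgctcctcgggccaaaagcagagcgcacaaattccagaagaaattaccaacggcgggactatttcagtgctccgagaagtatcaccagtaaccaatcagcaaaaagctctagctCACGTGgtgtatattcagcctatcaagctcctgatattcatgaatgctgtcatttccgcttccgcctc

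The subunits that lost a call without 1 library had larger SEs. Without some single libraries fewer genes were called lower in the whole table, and the eIF3 count was smaller too. With sgKLHL14 it was 2 without sgKLHL14 ibrutinib replicate 2, when EIF3M (adjusted p = 0.0700) and EIF3B (0.0791) lost their calls, and EIF3B also lost it without sgKLHL14 DMSO replicate 1 (0.106). With sgCTRL it was 2 without ibrutinib replicate 1, ibrutinib replicate 2 or DMSO replicate 1, when EIF3B (0.0580 to 0.125) and EIF3D (0.0686 to 0.138) lost theirs.

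Of the 12 other factors, 6 fell with sgKLHL14 and 8 with sgCTRL, and 0 rose, against 19.4% and 17.0% of all genes called lower. The medians were -0.20 and -0.25. EIF1, which guards start codon choice, had log2 levels of 12.88 and 12.61 in sgKLHL14 ibrutinib libraries, against 13.18 and 13.16 in sgKLHL14 DMSO libraries. The sgCTRL libraries had 12.58 and 12.52 in ibrutinib, against 12.97 and 13.11 in DMSO. The highest ibrutinib library was still below the lowest DMSO library, and the change was -0.42 with sgKLHL14 (SE 0.0739, adjusted p = 0.000158) and -0.49 with sgCTRL (SE 0.0739, adjusted p = 3.70e-05). EIF5B, the GTPase that joins the large subunit, had 13.23 and 13.12 in sgKLHL14 ibrutinib libraries, against 13.43 and 13.45 in sgKLHL14 DMSO libraries, and 13.05 and 13.05 with sgCTRL in ibrutinib, against 13.42 and 13.32 in DMSO. It fell by 0.26 on the log2 scale with sgKLHL14 (SE 0.0595, adjusted p = 0.00168) and by 0.32 with sgCTRL (adjusted p = 0.000318). EIF5, which makes eIF2 hydrolyse its GTP, changed by -0.23 (adjusted p = 0.00278) and -0.26 (adjusted p = 0.00135).

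EIF5A, the hypusine-bearing factor that helps peptide bonds form and release, had log2 levels of 13.74 and 13.59 in sgKLHL14 ibrutinib libraries, against 14.11 and 13.98 in sgKLHL14 DMSO libraries. With sgCTRL it had 13.65 and 13.63 in ibrutinib, against 13.85 and 13.90 in DMSO. The treatments did not overlap, and it changed by -0.38 (SE 0.0644, adjusted p = 0.000123) and -0.24 (SE 0.0644, adjusted p = 0.00756). EIF1AX, the X-linked gene of eIF1A, changed by -0.32 (SE 0.0711, adjusted p = 0.00138) and -0.27 (adjusted p = 0.00544). EIF5AL1, a near-copy of EIF5A, and the paralogue EIF5A2 had wide intervals, -0.556 to 0.191 and -0.223 to 0.389 with sgKLHL14, and were not called. Reads of EIF5A and EIF5AL1, and of EIF1AX and its Y-linked paralogue EIF1AY, may be misplaced between the copies, and EIF1AY is counted among the factors without a call.

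Calls with 1 guide made up the rest. EIF1AD, an RNA-binding protein related to eIF1A, EIF1B, the paralogue of EIF1, and EIF2A, which can deliver tRNA without eIF2, changed by -0.24, -0.25 and -0.18 with sgCTRL (adjusted p = 0.0234, 0.0166 and 0.0245) and by -0.12, -0.13 and -0.11 with sgKLHL14. EIF6, which keeps the large subunit from joining early, changed by -0.21 with sgKLHL14 (SE 0.0793, adjusted p = 0.0445) and -0.03 with sgCTRL.

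Several of these calls were lost when 1 library was left out, and the SEs were then larger. EIF5A with sgCTRL was at -0.2455, -0.2265 and -0.2115 in the fits where it lost its call, beside -0.236 with all libraries. Its SE there was 0.0786 to 0.0901, beside 0.0644 with all libraries. EIF6 with sgKLHL14 was at -0.08 without sgKLHL14 DMSO replicate 1 and at -0.33 without replicate 2. It also lost its call without any of the 4 ibrutinib libraries. Without either sgCTRL ibrutinib library its change stayed at -0.2075, and only the shared SE was larger. EIF1AX with sgCTRL was at -0.15 (adjusted p = 0.126) without sgCTRL DMSO replicate 2. With sgCTRL, EIF1AD lost its call without either ibrutinib library or DMSO replicate 1 (0.0561 to 0.199), and EIF1B without ibrutinib replicate 1 (0.161) or DMSO replicate 1 (0.119). EIF2A (0.0758 to 0.213) and EIF5A (0.0523 to 0.0739) lost theirs without either sgCTRL ibrutinib library or sgCTRL DMSO replicate 2. The count with sgCTRL was smaller without any 1 sgCTRL library, as was the number of genes called lower in the whole table.

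**Figure D3:**
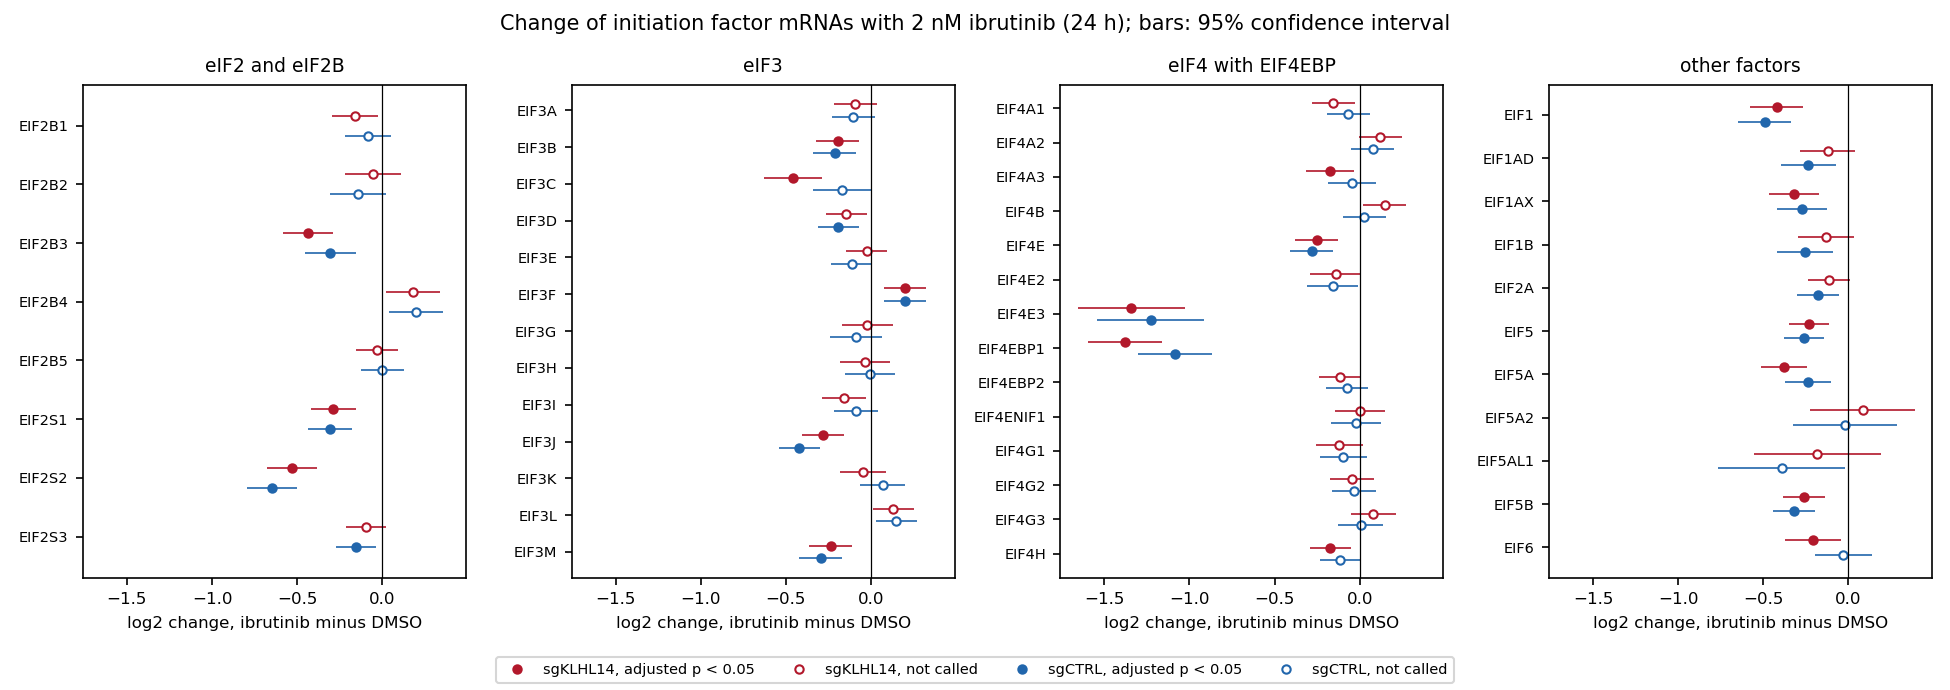
Log2 change, ibrutinib minus DMSO (x axis), of 46 initiation factor mRNAs by family, with sgKLHL14 (red) above sgCTRL (blue) for each gene. Points are limma estimates from 2 libraries a group, filled where the adjusted p was under 0.05, and bars are 95% confidence intervals. EIF4E3 and EIF4EBP1 stand beyond -1 with both guides, while most other genes lie between -0.5 and 0.2.

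The second question is whether the guide against KLHL14 changed these mRNAs. In ibrutinib 0 of the 47 were called between sgKLHL14 and sgCTRL by limma or by voom on recovered reads, where limma called 1.59% of all genes higher and 0.790% lower. An unadjusted p under 0.05 was found for 2 of the 47, against 1611 of all 12531 genes. The changes ran from -0.11 to 0.20, with EIF1 highest at 0.20 (95% interval 0.0448 to 0.354, limma adjusted p = 0.207). Of the 47, 14 were negative, and the median was 0.0465, beside -0.0045 over all genes. In DMSO 1 of the 47 was called higher and 0 lower, against 0.782% and 0.862% of all genes. An unadjusted p under 0.05 was found for 10 of the 47, against 1728 of all genes. In DMSO 15 of the 47 were negative, and the median was 0.0285, beside 0.003 over all genes. The called gene was EIF6, at 11.72 and 11.47 in sgKLHL14 DMSO libraries, against 11.18 and 11.36 in sgCTRL DMSO libraries. The difference was 0.32 (SE 0.0793, limma adjusted p = 0.0466). It was not called without sgKLHL14 DMSO replicate 1 (0.19) or sgCTRL DMSO replicate 1 (0.23). Nor was it called without any of the 4 ibrutinib libraries, where it stayed at 0.32 and only the shared SE was larger. With 1 library left out, the median difference of the 47 ran from 0.016 to 0.047 in DMSO and from 0.008 to 0.091 in ibrutinib. EIF4EBP1 differed by guide by -0.09 in ibrutinib (95% interval -0.310 to 0.124) and by 0.20 in DMSO (-0.0203 to 0.414), neither called.

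The genes that control or surround initiation were read from 4 lists, to be set beside the 19.4% (sgKLHL14) and 17.0% (sgCTRL) of all genes called lower and the 19.9% and 18.1% called higher. With so few genes a list, shares near these are no result about the list. In the eIF2 stress arm, 2 of 8 fell (25%) and 1 rose (12.5%) with either guide, near the shares of all genes, and the medians were -0.05 with sgKLHL14 and -0.09 with sgCTRL. ATF4, the transcription factor whose translation rises when eIF2 is phosphorylated, had log2 levels of 12.77 and 12.67 in sgKLHL14 ibrutinib libraries, against 13.63 and 13.55 in sgKLHL14 DMSO libraries. With sgCTRL it had 12.61 and 12.62 in ibrutinib, against 13.49 and 13.45 in DMSO. The treatments were far apart, and the change was -0.88 (adjusted p = 1.00e-09) and -0.86 (adjusted p = 1.29e-09). PPP1R15A, the phosphatase subunit that removes the phosphate from eIF2, fell by 0.77 with sgKLHL14 (adjusted p = 3.71e-08) and by 0.95 with sgCTRL (adjusted p = 2.21e-09). GCN1L1, an activator of the kinase GCN2, rose by 0.34 (adjusted p = 0.000273) and 0.28 (adjusted p = 0.00190). The kinases EIF2AK1, EIF2AK2, EIF2AK3 and EIF2AK4 were between -0.18 and 0.19 and not called.

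PPP1R15A was also the 1 gene of the 4 lists that was called between guides. It was 11.58 and 11.54 in sgKLHL14 ibrutinib libraries, against 11.07 and 11.02 in sgCTRL ibrutinib libraries, a difference of 0.51 (adjusted p = 0.000118) that was not called without the mean-variance trend (adjusted p = 0.0572). In DMSO it was 12.38 and 12.26 with sgKLHL14, against 12.07 and 11.91 with sgCTRL, a difference of 0.33 (adjusted p = 0.0118) that was not called without sgKLHL14 DMSO replicate 1 (adjusted p = 0.168) or sgCTRL DMSO replicate 2 (0.125), nor without the trend or the filter on low values. Its response to ibrutinib differed between guides by 0.18, which was not called.

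In the mTORC1 and eIF4E list, 4 of 16 fell and 5 rose with sgKLHL14, and 3 fell and 5 rose with sgCTRL. The shares called lower were 25% and 18.8%, near the 19.4% and 17.0% of all genes. Shares called higher were 31.2% with either guide, against 19.9% and 18.1% of all genes, and the medians were 0.02 and -0.03. SESN2, a leucine sensor that restrains mTORC1 and a known ATF4 target, had log2 levels of 7.21 and 7.40 in sgKLHL14 ibrutinib libraries, against 9.09 and 9.01 in sgKLHL14 DMSO libraries. The sgCTRL libraries had 7.05 and 6.77 in ibrutinib, against 8.93 and 8.66 in DMSO. It had the largest fall of the 4 lists, at -1.75 with sgKLHL14 (adjusted p = 1.05e-08) and -1.88 with sgCTRL (adjusted p = 3.93e-09). DDIT4, another mTORC1 inhibitor induced by stress, fell by 0.46 and 0.38 (adjusted p = 0.000848 and 0.00403), and GBL, the older symbol of the mTOR partner MLST8, fell by 0.34 and 0.35.

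TSC1 and TSC2, which form the complex that switches off the mTORC1 activator RHEB, rose by 0.57 and 0.39 with sgKLHL14 (adjusted p = 4.14e-06 and 0.000192) and by 0.36 and 0.36 with sgCTRL (adjusted p = 0.000716 and 0.000565). PDCD4, which inhibits the eIF4A helicase, rose by 0.36 (adjusted p = 7.48e-05) and 0.26 (adjusted p = 0.00208). The kinase mTOR itself, listed as FRAP1, was at -0.01 and 0.11, and RHEB, RPS6KB1 and RPS6KB2 were not called. AKT1S1 (PRAS40), another inhibitor of mTORC1, was at 0.04 and -0.0085 and not called. DEPDC6 (DEPTOR), MKNK2 and LARP1 were called with sgKLHL14 alone (1.17, 0.18 and -0.17, against -0.22, 0.10 and -0.15 with sgCTRL), and KIAA1303 (RPTOR) and MKNK1 with sgCTRL alone (0.29 and 0.21), while no gene of the list was called for a difference in response. Each of these 5 calls ended without at least 1 library. DEPDC6, a gene of low level, lost its call without sgKLHL14 ibrutinib replicate 2 (adjusted p = 0.134) or either sgKLHL14 DMSO library (0.0550 and 0.0872). MKNK2 lost it without any 1 ibrutinib library or sgKLHL14 DMSO replicate 2 (0.12), though its change stayed at 0.184 without either sgCTRL ibrutinib library. LARP1 lost it without sgKLHL14 ibrutinib replicate 1 (-0.13) or sgKLHL14 DMSO replicate 2 (-0.11). It also lost it without either sgCTRL ibrutinib library, where its change stayed at -0.168. KIAA1303 lost it without sgCTRL ibrutinib replicate 2 (0.0875) or sgCTRL DMSO replicate 2 (0.18, adjusted p = 0.134), and MKNK1 without any 1 sgCTRL library (0.0548 to 0.245). DDIT4 with sgCTRL was not called without sgCTRL DMSO replicate 2 (0.0605), nor GBL with sgKLHL14 without sgKLHL14 DMSO replicate 1 (0.0638). The number called higher was smaller with either guide without some single libraries, and so was the number over all genes. With sgCTRL more were called lower without either sgKLHL14 DMSO library, as over all genes.

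Of 11 factors that bind mRNA or recycle ribosomes, 3 were lower (27.3%) and 2 higher (18.2%) with either guide, also near the shares of all genes, with medians of -0.05 with sgKLHL14 and -0.15 with sgCTRL. BZW2, a mimic of eIF5, fell by 0.32 and 0.28 (adjusted p = 0.000173 and 0.000680), ABCE1, which splits ribosomes after termination, by 0.21 and 0.20, and PABPC4, a poly(A)-binding protein, by 0.22 and 0.18. PAIP2, an inhibitor of poly(A)-binding protein, rose by 0.34 and 0.33 (adjusted p = 0.000357 and 0.000573), and MCTS1, a partner of DENR in reinitiation, by 0.22 and 0.31. PABPC4 lost its call with sgKLHL14 without ibrutinib replicate 2 (0.0707), and with sgCTRL without either ibrutinib library or DMSO replicate 1 (0.0976 to 0.159). MCTS1 lost it with sgKLHL14 without any 1 sgKLHL14 library (0.0693 to 0.122), and with sgCTRL without ibrutinib replicate 1 (0.0520) or DMSO replicate 1 (0.16, adjusted p = 0.139). ABCE1 with sgCTRL lost it without ibrutinib replicate 2 (0.130) or DMSO replicate 2 (0.0563), and with sgCTRL 1 gene of the list was called lower without ibrutinib replicate 2.

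Among elongation and termination factors, 3 of 10 fell (30%) and 1 rose (10%) with either guide, against 19.4% and 17.0% of all genes lower and 19.9% and 18.1% higher, and the medians were -0.02 with sgKLHL14 and 0.04 with sgCTRL. The release factors ETF1 and GSPT1 fell by 0.31 and 0.29 with sgKLHL14 (adjusted p = 0.000289 and 0.000487) and by 0.32 and 0.37 with sgCTRL (adjusted p = 0.000241 and 5.36e-05). EEF1E1, a scaffold of the tRNA synthetase complex, fell by 0.45 and 0.24 (adjusted p = 0.000107 and 0.0211). The elongation factors EEF1A1, EEF1B2, EEF1D, EEF1G and EEF2 were between -0.09 and 0.17 and not called. EEF2K, the kinase that inhibits eEF2, was called higher with sgKLHL14 (0.16, adjusted p = 0.0450) and GSPT2, a paralogue of GSPT1, with sgCTRL (0.28, adjusted p = 0.0312). EEF2K lost its call without any 1 ibrutinib library or sgKLHL14 DMSO replicate 1 (0.12), though its change stayed at 0.162 without either sgCTRL ibrutinib library. GSPT2 lost its call without sgCTRL ibrutinib replicate 2 (0.18) or sgCTRL DMSO replicate 1 (0.21). EEF1E1 with sgCTRL lost it without ibrutinib replicate 2 (0.212) or DMSO replicate 2 (0.179).

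**Figure D4:**
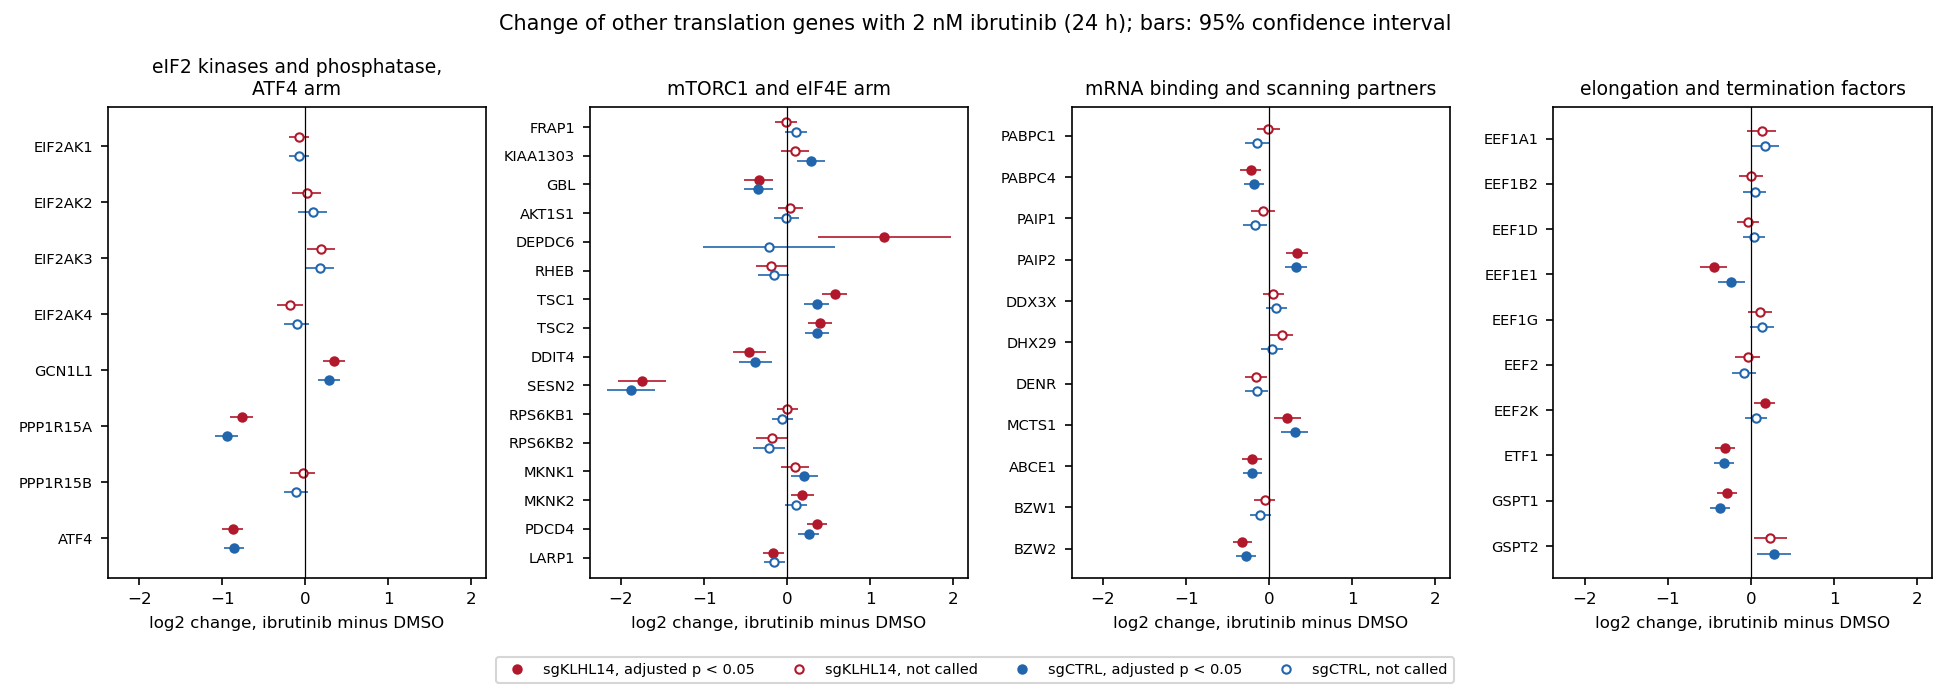
Log2 change, ibrutinib minus DMSO (x axis), of 45 other translation genes in 4 lists, with sgKLHL14 (red) above sgCTRL (blue) for each gene. Points are limma estimates from 2 libraries a group, filled where the adjusted p was under 0.05, and bars are 95% confidence intervals. SESN2, ATF4 and PPP1R15A lie farthest below 0 with both guides.

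The 4 Argonaute genes behaved unlike one another. EIF2C2, the older symbol of AGO2, which cleaves target RNAs, had log2 levels of 8.64 and 8.63 in sgKLHL14 ibrutinib libraries, against 9.25 and 9.54 in sgKLHL14 DMSO libraries. The sgCTRL libraries had 8.88 and 9.08 in ibrutinib, against 9.51 and 9.53 in DMSO. The treatments did not overlap, and the change was -0.76 with sgKLHL14 (SE 0.106, adjusted p = 1.41e-05) and -0.54 with sgCTRL (SE 0.106, adjusted p = 0.000548). EIF2C1, EIF2C3 and EIF2C4 were at -0.05, 0.0015 and 0.30 with sgKLHL14 and at -0.18, -0.07 and 0.24 with sgCTRL, none called.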

How the data were processed

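The samples were 8 stranded poly(A) RNA-seq libraries, per the labels' protocols. Reads were handled with bcl2fastq, STAR and HTSeq on hg19, per the submitters' processing notes. Versions, annotation and use of strand in counting are not given in the sources used, so reads of an antisense or overlapping partner may be included. The deposited table held normalised log2 values made by the authors, with a row of total reads in the same columns, so its unit was recorded as a score and that row was kept out of all tests. Dividing each linear value by the worth of 1 read in its library (1.16 to 2.19) gave whole reads for 100% of values, within 6e-04 on the log2 scale. The table had 0 columns of other samples. Totals of 12333876 to 23467110 reads set the counting error, which is largest for low genes.

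The 12531 genes with a mean of at least 4.2 entered 1 limma fit (3.58.1, R 4.3.3) of 4 group means, with a variance prior that followed the mean (4 residual and 14.9 prior degrees of freedom). P-values were adjusted over all of them by the Benjamini-Hochberg method and called under 0.05; no pseudocount entered. A median or count over a list is a description with no test. Members, lists and motifs were chosen with earlier results of these data known. Named are all called members, with full values for up to 10 a comparison, and uncalled partners or paralogues of called ones. IMPACT and PAIP2B, on the lists, were under the filter. Symbols are those of the table, and RefSeq (GRCh38.p14) supplied names for all 51 members and promoter sequence only. Alternatives were other filters, no variance trend, median and quantile scaling, a pseudocount of 16, voom on the recovered reads, a replicate block, and leaving out each library. The fit code was also run on simulated data with the same added spread for every gene, and no result here rests on that run.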

Additional observations from a re-analysis of the deposited data

How the results depend on the processing

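Of 42 called results of the members, 26 kept their call under all 16 alternatives, 16 lost it under at least 1, and 0 changed direction. Calls were lost most often without the mean-variance trend (15), then without the filter on low values (6), with quantile scaling (4), median scaling (3) and voom (1); leaving out 1 library lost 3 to 11. Of 43 called results of the other translation genes, 14 were lost without the trend, 8 without the filter, 1 each with median scaling and voom, and 4 to 9 with 1 library left out. With sgCTRL, the 19 factors called lower were 11 without the trend and 12 to 19 with 1 library left out. The 1 called higher with sgKLHL14 was 0 without the trend, 2 with median scaling or voom, and 0 to 2 with 1 library left out. The 1 called higher with sgCTRL was 3 at a mean log2 of at least 6, 0 without the trend, 3 with quantile scaling, 2 with voom, and 0 to 3 with 1 library left out. Between guides in DMSO, the 1 called higher was 0 without the filter, without the trend, and with median or quantile scaling. Over all genes, the 98 called higher were 26, 14, 77 and 81 in these fits. The count in DMSO also moved with 1 library left out, and in ibrutinib the 0 called changed only then. The cause of these changes was not tested. Deviations of same-numbered libraries correlated at -0.0552 to 0.122, so the numbers were not taken to pair them. With the replicate block 22 factors were called lower and 2 higher with sgKLHL14, and 19 and 3 with sgCTRL. Over all genes the block gave 2599 lower and 2663 higher with sgKLHL14, beside 2435 and 2489 without it. With sgCTRL it gave 2299 and 2458, beside 2133 and 2270, and 0 member calls were lost. Where 1 library is left out, its partner is assumed to vary like the other groups. Leaving out a library of a group outside a comparison keeps the log2 change and moves only the shared SE and the p-values. Genes of few reads, such as EIF5AL1 and DEPDC6, have the widest intervals.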
